A study of Homo sapiens with 6 samples.

Results

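Expression of 10 genes of the matrix metalloproteinase system was examined in BCPAP, a cell line established from a human papillary thyroid carcinoma. The group holds 7 matrix metalloproteinase (MMP) genes, MMP1, MMP2, MMP3, MMP9, MMP10, MMP13 and MMP14, and 3 genes of tissue inhibitors of metalloproteinases, TIMP1, TIMP2 and TIMP3. The members were chosen by gene symbol, as every probe set whose platform annotation names 1 of these genes and no other, which gave 26 of the 44988 probe sets with a single gene and 10 of 18132 genes. BCPAP cells received lentivirus encoding a short hairpin RNA to silence CSF2, which encodes GM-CSF (shCSF2, 3 arrays), or with a non-targeting hairpin (shCtrl, 3 arrays). All cells of both groups were infected and then selected with puromycin for 7 days, starting 48 hours after infection, so both carry a hairpin vector and the resistance marker. The labels call the arrays of a group biological replicates and do not say how many hairpins were used or whether selected cells were cloned. The group was put together with the difference between shCSF2 and shCtrl already known, including the rises of MMP10 and MMP9. The differences below are therefore a description of these genes and not a test of them.

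MMPs are zinc-dependent enzymes that cut proteins of the extracellular matrix and of the cell surface. Most are secreted as inactive proenzymes that other proteases, such as plasmin, or other MMPs activate, and TIMPs block the active enzymes by binding the catalytic site. Several MMP genes have AP-1 sites in their promoters and respond to MAPK signalling and inflammatory cytokines, and in thyroid carcinoma the family is studied for its part in invasion.

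Each array gave a log2 expression value for 49395 probe sets, with array medians between 5.77 and 5.79. Arrays correlated across probe sets, which are not independent replicates, with r = 0.998 within groups and r = 0.994 between them. The knockdown could not be checked, since 0 probe sets were paired with CSF2. Of 6 measured markers of thyroid follicular cells, PAX8, NKX2-1 and FOXE1 lay above the array median on all 6 arrays, whereas TG, TSHR and SLC5A5, which mark differentiated function, lay below it. Of 6 epithelial markers the keratin genes KRT7, KRT8 and KRT18 lay above the array median and KRT19, EPCAM and CDH1 below it, and KRT8 fell (-0.26 ± 0.05, log2 fold change ± SE). Of 6 leukocyte markers CD68 lay above the median (6.89 in shCSF2 and 7.00 in shCtrl cells), and PTPRC, which marks all leukocytes, was dim (2.33 and 2.35). The summed level of 7 fibroblast markers was 8.64 to 8.68 in shCSF2 and 9.10 to 9.17 in shCtrl cells, with 1 marker above the array median, THY1, which fell (-0.61 ± 0.04, log2 fold change ± SE), and FAP at 2.67 and 2.64. The thyroid markers summed to 10.03 to 10.08 in shCSF2 and 10.32 to 10.33 in shCtrl cells, where NKX2-1 fell. Of 5 endothelial markers PECAM1, CDH5 and KDR lay above the array median on all 6 arrays, and VWF and TEK did not. TEK was dim (3.19 in shCSF2 and 3.44 in shCtrl cells) and fell (-0.25 ± 0.08, log2 fold change ± SE). Summed epithelial, leukocyte and endothelial markers overlapped between the groups. The 3' minus 5' difference of GAPDH control probe sets was -0.02 to 0.00 in shCSF2 and -0.05 to -0.03 in shCtrl cells on the log2 scale (exact two-sided permutation p = 0.1, the smallest that 3 against 3 arrays allow). That of ACTB overlapped between the groups (exact two-sided permutation p = 0.6). The part of these shifts in the results below was not tested. In bulk RNA, fewer cells of a kind and less RNA per cell cannot be told apart.

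In shCSF2 cells MMP10 was higher by 2.71-fold, MMP3 by 1.22-fold and MMP9 by 1.19-fold, while TIMP3 was lower by 1.49-fold, MMP2 by 1.34-fold and TIMP2 by 1.09-fold (n = 3 arrays per group). These 6 of the 10 genes passed an adjusted p of 0.05 in limma's fit over all genes, 3 in each direction. Of all 18132 genes, 32.7% passed, 16.7% as higher and 16.0% as lower. The groups did not overlap in 9 of the 10 genes, against 46.7% of all genes. In 5 of them every shCSF2 array was above every shCtrl array (22.1% of all genes), and in 4 every one was below (24.6% of all genes). Because the genes were put together with this contrast known, nothing is read from these shares. The median absolute log2 fold change was 0.20 over the 10 genes and 0.11 over all genes.

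**Figure D1:**
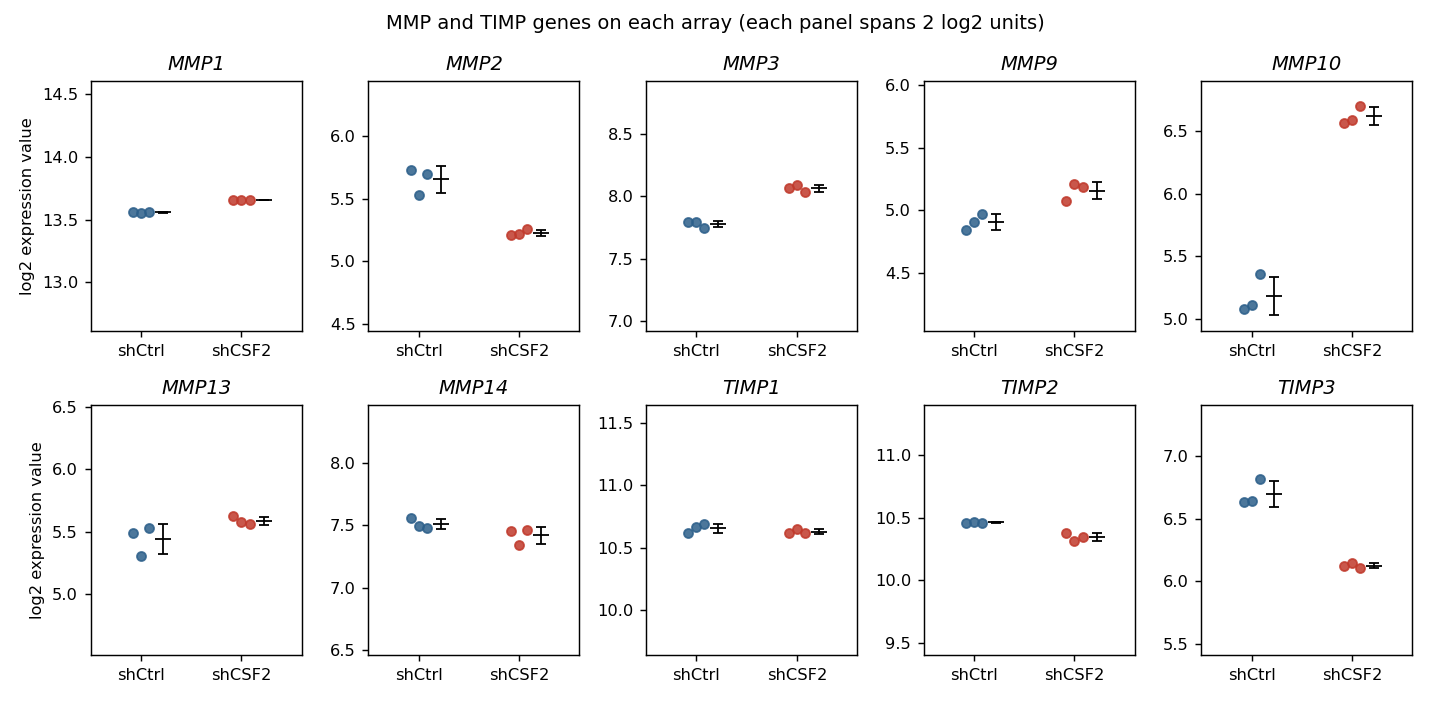
Log2 expression values of the 10 genes, by the brightest probe set of each, on the 3 shCtrl (blue) and 3 shCSF2 (red) arrays. Bars give the mean ± SD, and each panel spans the same 2 log2 units, so that vertical distances compare. MMP10 moves from a mean of 5.18 to 6.62, TIMP3 from 6.70 to 6.13, and the arrays of TIMP1 overlap.

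MMP10, stromelysin-2, is a secreted enzyme that cuts non-collagen matrix proteins and activates other proMMPs. Its values were 5.08, 5.11 and 5.36 in shCtrl replicates 1, 2 and 3, and 6.56, 6.59 and 6.70 in shCSF2 replicates 1, 2 and 3. Every shCSF2 array lay above every shCtrl array, and shCtrl replicate 3 was the highest control. The log2 fold change was 1.44 ± 0.08 (SE), from 5.18 ± 0.15 to 6.62 ± 0.07 (mean ± SD, n = 3), and 7 genes on the array, MMP10 included, rose by at least as much. MMP10 had 1 probe set, so its change rests on that probe set alone. By the mean over all 6 arrays 51.9% of probe sets were dimmer. In shCtrl cells alone its values lay below the array medians of 5.77 to 5.79. The 250 bases before its start site are shown because MMP10 moved most. They were taken from RefSeq (GRCh38.p14, minus strand, chr11:102780629-102780878), with matches to an AP-1 site and to a TATA box in capitals:
MMP10: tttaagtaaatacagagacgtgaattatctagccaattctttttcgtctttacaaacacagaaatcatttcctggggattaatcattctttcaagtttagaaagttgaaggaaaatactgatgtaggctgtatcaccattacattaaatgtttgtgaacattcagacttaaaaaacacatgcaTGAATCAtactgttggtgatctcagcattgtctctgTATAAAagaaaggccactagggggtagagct
Letters searched on both strands were TGANTCA for AP-1, AGGAAG for the PEA3 core that ETS factors bind, TATAAA for a TATA box and GGGCGG for a GC box, where N is any base. The AP-1 match starts 67 bases and the TATA match 31 bases before the start site. Of 35116 RefSeq promoters of this length, 6.57% hold the AP-1 letters and 10.7% the TATA letters. A match describes letters and shows no binding.

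MMP3, MMP1 and MMP13 lie near MMP10 in the MMP cluster of chromosome 11. MMP3, stromelysin-1, is the closest relative of MMP10 and acts on similar substrates. Its values were 7.80, 7.79 and 7.75 in shCtrl replicates 1 to 3 and 8.07, 8.09 and 8.03 in shCSF2 replicates 1 to 3. The groups did not overlap, and the log2 fold change was 0.28 ± 0.04 (SE). Its single probe set carries Affymetrix's _s_at mark, for probes that can match more than 1 transcript, so signal from related transcripts such as MMP10 cannot be told apart from MMP3. The MMP10 probe set carries no such mark. The brightest probe sets of MMP2, TIMP2 and MMP12 also carry the _s_at mark, as does the dimmest of TIMP3, so the same limit holds for them.

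MMP1, the interstitial collagenase, which cleaves fibrillar collagens, was among the brightest transcripts. Its values of 13.56, 13.56 and 13.56 in shCtrl and 13.66, 13.65 and 13.66 in shCSF2 cells lay close to the array maxima of 13.91 to 14.09, with 99.98% of probe sets dimmer. The groups did not overlap and their spread was very small (SD 0.0040 in shCtrl and 0.0024 in shCSF2, n = 3). The log2 fold change of 0.10 ± 0.03 (SE, moderated over all genes) did not pass, but did in 5 of 17 alternative fits. Its other probe set, also near the top of the range, gave 0.12 ± 0.04. How far values so close to the maximum understate a change was not tested.

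MMP13, collagenase-3, which cleaves type II collagen efficiently, had 5 probe sets. The brightest read 5.49, 5.31 and 5.53 in shCtrl replicates 1 to 3 and 5.63, 5.58 and 5.56 in shCSF2 replicates 1 to 3, with a log2 fold change of 0.15 ± 0.06 (SE) that did not pass and was 0.08 without shCtrl replicate 2. The 5 probe sets gave log2 fold changes from 0.02 to 0.47, all above 0, and 0 of them passed. In the fit by each gene's most variable probe set MMP13 passed, at 0.47. That choice takes the variance over all 6 arrays, group difference included. It therefore favours probe sets with large differences and gives no separate support. The 5 probe sets of MMP13 were dim, with means over the 6 arrays from 2.52 to 5.52. Their spread between arrays was wide, up to an SD of 0.30 in shCSF2 cells.

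In the RefSeq order along chromosome 11, the MMP genes run MMP7, MMP20, MMP27, MMP8, MMP10, MMP1, MMP3, MMP12 and MMP13. By the brightest probe set of each gene, all shCSF2 arrays lay above all shCtrl arrays in the 5 genes from MMP10 to MMP13, as in 22.1% of all genes. By that probe set the groups overlapped in the 4 genes before MMP10. In some dimmer probe sets of MMP13 the groups overlapped as well. Of the whole cluster only MMP10 and MMP3 passed. All 4 genes before MMP10 were dim, with group means between 2.69 and 4.13, and MMP12 was as dim (2.79 in shCSF2 and 2.67 in shCtrl cells). Near that level a difference, or its lack, is poorly measured.

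**Figure D2:**
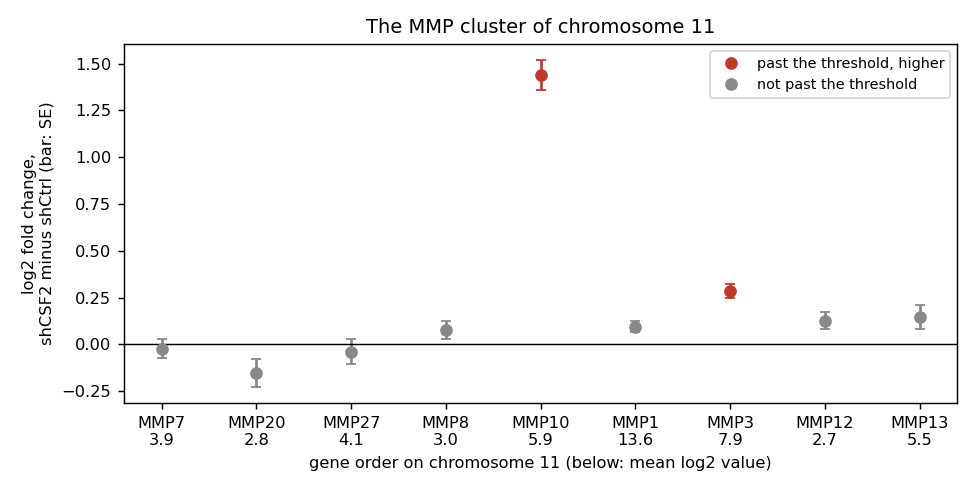
Log2 fold change (shCSF2 minus shCtrl, bars SE) of the 9 MMP genes of the chromosome 11 cluster in their order on the chromosome, evenly spaced, with the mean log2 value under each name. MMP10 stands at 1.44 and MMP3 at 0.28, both past the threshold, and the other genes lie between -0.15 and 0.15.

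The gelatinases cleave denatured collagen and type IV collagen of basement membranes, and the 2 genes moved in opposite directions. MMP9, gelatinase B, read 4.85, 4.91 and 4.98 in shCtrl replicates 1 to 3 and 5.08, 5.21 and 5.19 in shCSF2 replicates 1 to 3. The groups did not overlap, and its 1 probe set rose by 0.25 ± 0.05 (log2 fold change ± SE). MMP2, gelatinase A, read 5.73, 5.53 and 5.70 in shCtrl replicates 1 to 3 and 5.21, 5.22 and 5.26 in shCSF2 replicates 1 to 3. Its arrays were also separate, and it fell by 0.43 ± 0.06 on the log2 scale. Of its 4 probe sets 3 passed as lower, with log2 fold changes from -0.43 to -0.26, and the fourth gave -0.10 ± 0.08. In the passing probe set at -0.26 the groups overlapped, and that at -0.30 was dim (3.06 in shCSF2 and 3.37 in shCtrl cells). With all 4 averaged MMP2 was at -0.27, and with only probe sets ending _at or _a_at at -0.26. Both genes gave signals below the array median, with 38.2% of probe sets dimmer than that of MMP9 and 44.8% dimmer than the brightest of MMP2.

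MMP14 encodes the membrane-anchored MT1-MMP, which cleaves collagen at the cell surface and, with TIMP2 as a bridge, activates proMMP2. Its values were 7.56, 7.49 and 7.48 in shCtrl replicates 1 to 3 and 7.45, 7.34 and 7.46 in shCSF2 replicates 1 to 3. Although the groups did not overlap, the log2 fold change of -0.09 ± 0.05 (SE) did not pass, and was -0.05 without shCSF2 replicate 2. Its 4 probe sets gave values from -0.11 to 0.03, and 0 of them passed, although 1 passed as lower in 3 alternative fits.

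Of the inhibitor genes, TIMP3 fell, TIMP2 fell slightly and TIMP1 did not pass. TIMP3 binds to the matrix and also inhibits several ADAM and ADAMTS proteases. Its values were 6.64, 6.64 and 6.82 in shCtrl replicates 1 to 3 and 6.12, 6.15 and 6.11 in shCSF2 replicates 1 to 3. All shCSF2 arrays were lower, and the log2 fold change was -0.57 ± 0.06 (SE). All 3 probe sets of TIMP3 passed as lower, with log2 fold changes of -0.38 ± 0.04, -0.67 ± 0.05 and -0.57 ± 0.06. Its upstream sequence is shown beside that of MMP10 because TIMP3 had the largest fall of the 10 genes. It comes from the same RefSeq table (GRCh38.p14, plus strand, chr22:32801455-32801704), with GC boxes in capitals:
TIMP3: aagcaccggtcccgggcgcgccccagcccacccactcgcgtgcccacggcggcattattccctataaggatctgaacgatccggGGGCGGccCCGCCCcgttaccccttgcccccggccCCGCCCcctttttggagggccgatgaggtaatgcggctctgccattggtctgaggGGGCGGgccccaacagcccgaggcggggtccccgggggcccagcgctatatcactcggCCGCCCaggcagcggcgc
These 250 bases hold 5 GC boxes and no match to the AP-1, PEA3 or TATA letters, and 42.6% of RefSeq promoters of this length hold at least 1 GC box. Of the 10 genes 4 were found in that table. In the other 2, MMP14 held 1 GC box, and TIMP1 held 2 GC boxes and 1 PEA3 core, letters that 28.7% of promoters hold.

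TIMP2, which both inhibits MMPs and helps MMP14 to activate proMMP2, read 10.46, 10.47 and 10.46 in shCtrl replicates 1 to 3 and 10.37, 10.31 and 10.35 in shCSF2 replicates 1 to 3. The groups were separate, with a log2 fold change of -0.12 ± 0.03 (SE). Its call was lost in all 6 fits that left out 1 array, where the log2 fold change lay between -0.13 and -0.10, and neither of its 2 probe sets passed in the fit over all probe sets. TIMP1, a secreted inhibitor of most MMPs, read 10.62, 10.66 and 10.69 in shCtrl replicates 1 to 3 and 10.62, 10.65 and 10.62 in shCSF2 replicates 1 to 3. These arrays overlapped, and the log2 fold change was -0.03 ± 0.04 (SE). Its 3 probe sets gave 0.00 ± 0.04, -0.03 ± 0.04 and -0.14 ± 0.06, the last from a probe set much dimmer than the others.

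Within the fit over all 49293 probe sets, 9 of the 26 probe sets of these genes passed, 3 as higher and 6 as lower. Of all probe sets 29.1% passed, 15.3% as higher and 13.8% as lower. The groups did not overlap in 17 of the 26, and in 43.8% of all probe sets. No gene had probe sets that passed in opposite directions. The 3 that passed as higher were those of MMP10, MMP3 and MMP9, each the only probe set of its gene, so none of the rises was measured by another probe set. The 6 that passed as lower were 3 of MMP2 and 3 of TIMP3.

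**Figure D3:**
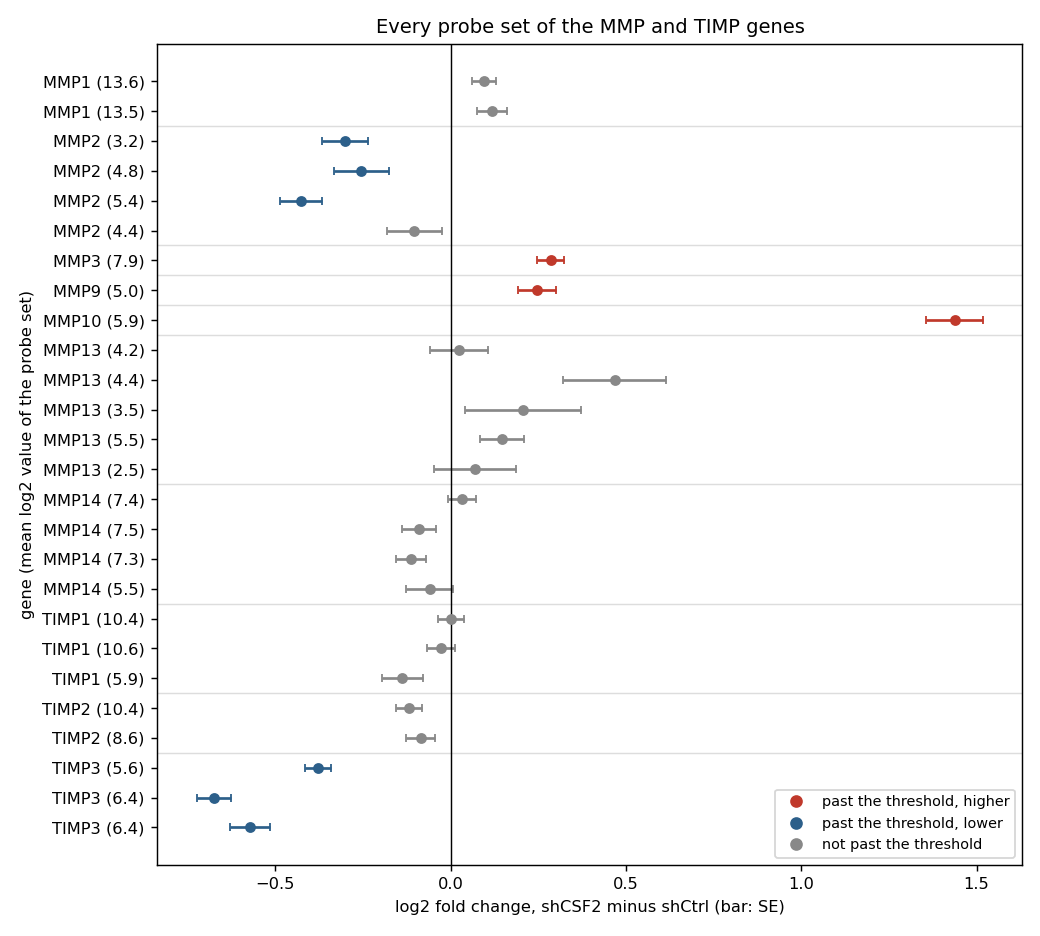
Log2 fold change (shCSF2 minus shCtrl) of each of the 26 probe sets, with SE bars from the fit over all probe sets and the probe set's mean log2 value in brackets. Red and blue points passed the threshold as higher and lower. The 3 probe sets of TIMP3 lie between -0.67 and -0.38, and that of MMP10 stands alone at 1.44.

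Genes around the MMP system were followed through 6 lists by role, also put together with results of these data known. Of 15 measured MMP genes outside the 10, 0 passed in limma's fit and 1 had an unadjusted p under 0.05. Of all 18132 genes 32.7% passed, and 7694 had an unadjusted p under 0.05. Much of this list gave low signal. Leaving out genes with a mean below 5 kept 8 of the 15, and leaving out those below the median over genes kept 2. At low signal a difference, or its lack, is poorly measured, so the 0 does not show that these genes did not respond. The log2 fold changes of the 15 genes lay between -0.15 (MMP20) and 0.13 (MMP12), with a median of -0.05, against -0.03 over all genes. The call depends on the probe set for some of them. Of 6 probe sets of MMP16, a membrane-type MMP, 1 passed as higher (0.23 against -0.05 for its brightest), and of 2 of MMP15, another membrane-type MMP, 1 passed as lower. By the gene's own fit MMP12 passed as higher in 3 of 14 alternatives, MMP15 as lower in 1 of 16 and MMP28 as lower in 1 of 17. MMP15, MMP16 and MMP28 were named after their values were seen.

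Proenzyme activation is the step at which plasmin and furin-like proteases act. Of 7 measured genes of this list 3 rose and 1 fell (16.7% of all genes passed as higher and 16.0% as lower), and the list's median was 0.00 on the log2 scale. The plasminogen activator genes PLAU, which encodes urokinase, and PLAT, which encodes the tissue-type activator, rose by 0.44 ± 0.03 and 0.38 ± 0.03 (log2 fold change ± SE). The gene of the urokinase receptor, PLAUR, rose by 0.35 ± 0.04. PLAU stood at 11.28 ± 0.01 in the shCtrl and 11.72 ± 0.02 in the shCSF2 arrays (mean ± SD, n = 3), and all 3 of its probe sets passed as higher, as did 6 of 7 of PLAT and 4 of 5 of PLAUR. The plasminogen gene PLG fell (-0.20 ± 0.06) at a dim level of 3.58 in shCSF2 and 3.78 in shCtrl cells, and passed in 3 of 6 fits with an array omitted. Averaged or by its most variable probe set PLG did not pass (0.10 by the latter). FURIN, which activates MMP14 inside the cell, gave -0.07 ± 0.03 and did not pass.

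Of 9 genes of inhibitors and modulators outside these TIMPs, 4 fell and 0 rose in limma's fit, 6 having an unadjusted p under 0.05. Of all 18132 genes 16.0% fell and 16.7% rose, and 7694 had an unadjusted p under 0.05. The list's median was -0.13. The thrombospondin gene THBS2 (-0.34 ± 0.07, log2 fold change ± SE), its relative THBS1 (-0.24 ± 0.04), the protease inhibitor gene TFPI2 (-0.17 ± 0.03) and the testican gene SPOCK1 (-0.13 ± 0.03) fell. SPOCK1 passed in 2 of 6 fits with an array omitted. TFPI2 passed in 14 of 16 alternative fits, and 2 of its 3 probe sets passed as lower, while the other gave -0.01 ± 0.06. THBS2 lay below the array median (4.97 in shCSF2 and 5.31 in shCtrl cells). By its most variable probe set THBS1 was at -0.61, and all 5 of its probe sets passed as lower. TIMP4 gave -0.01 ± 0.03 and the membrane-anchored inhibitor gene RECK -0.29 ± 0.10, neither past the threshold. By its most variable probe set RECK passed at -0.53, but for RECK as for THBS1 that choice favours large differences. A2M, the gene of the plasma protease inhibitor alpha-2-macroglobulin, gave 0.17 ± 0.06 and passed as higher in 6 of 15 alternative fits.

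Cell-surface partners hold MMPs at the membrane, induce them or clear them. Of 11 genes 6 fell and 1 rose, where 16.0% of all genes were called lower and 16.7% higher, and the list's median was -0.17 on the log2 scale. ITGB3, the beta subunit of the alpha-v beta-3 integrin, fell by 0.68 ± 0.04 on the log2 scale, and ITGAV, the alpha-v subunit, by 0.36 ± 0.05. The syndecan gene SDC1 fell by 0.66 ± 0.06. CD44, the hyaluronan receptor that can anchor MMP9 and MMP14, rose by 0.43 ± 0.04, and all 10 of its probe sets passed as higher, with log2 fold changes from 0.43 to 1.28. By its most variable probe set, a choice that favours large differences, ITGB3 was at -1.07. BSG, the gene of the MMP inducer EMMPRIN, was named after its values were seen. By its brightest probe set BSG passed as lower (-0.17 ± 0.05) but in 1 of 6 fits with an array omitted. In the fit over all probe sets 5 of its 6 probe sets passed as lower, and all 6 averaged -0.31. All 7 probe sets of ITGB3 and all 3 of SDC1 passed as lower.

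Transcription factors of the AP-1, ETS and RUNX families bind MMP promoters. Of 13 genes 8 rose and 2 fell, against 16.7% and 16.0% of all genes, and the list's median was 0.15 on the log2 scale. ETV5, an ETS factor of the PEA3 group, rose by 0.47 ± 0.04, FOSL1, which encodes the AP-1 subunit FRA-1, by 0.37 ± 0.04, and ETS1 by 0.33 ± 0.03 (log2 fold change ± SE). FOSL2, which encodes the AP-1 subunit FRA-2, fell by 0.45 ± 0.05 on the log2 scale, by 3 of its 5 probe sets, and was at -0.20 with all 5 averaged. All 4 probe sets of ETV5, all 6 of FOSL1 and all 3 of ETS1 passed as higher. Of the 8 that rose, ETV4 passed in 0 and FOS in 1 of the 6 fits without 1 array, by the brightest probe set of each. All 4 probe sets of FOS passed as higher, from 0.16 for the brightest to 1.03, and averaged 0.61. ETV4 and FOS were named after their values were seen.

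Of 20 measured matrix proteins that MMPs cut, 16 fell and 0 rose in limma's fit, 16 having an unadjusted p under 0.05. Among all 18132 genes 16.0% fell and 16.7% rose, and 7694 had an unadjusted p under 0.05. The list's median log2 fold change was -0.41, and all 20 values were below 0 by the probe set used. Those with the largest falls were the collagen genes COL5A2 (-1.08 ± 0.03, log2 fold change ± SE), COL4A1 (-1.01 ± 0.03) and COL1A1 (-0.93 ± 0.05) and the versican gene VCAN (-0.65 ± 0.04). All 9 probe sets of VCAN passed as lower, but 2 of 3 of COL4A1, 5 of 6 of COL5A2 and 1 of 5 of COL1A1, whose value was -0.25 with all probe sets averaged. COL5A2 was at -0.69 with all averaged. LAMC1, a laminin chain gene named after its values were seen, passed as lower by its brightest probe set (-0.23 ± 0.03). In the fit over all probe sets 4 of its 5 probe sets passed as lower, with log2 fold changes from -0.36 to -0.21. The remaining probe set, its most variable, was dim, gave 0.32 ± 0.12 and did not pass. Values of transcripts such as these say nothing of how much matrix protein was made or cut.

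**Figure D4:**
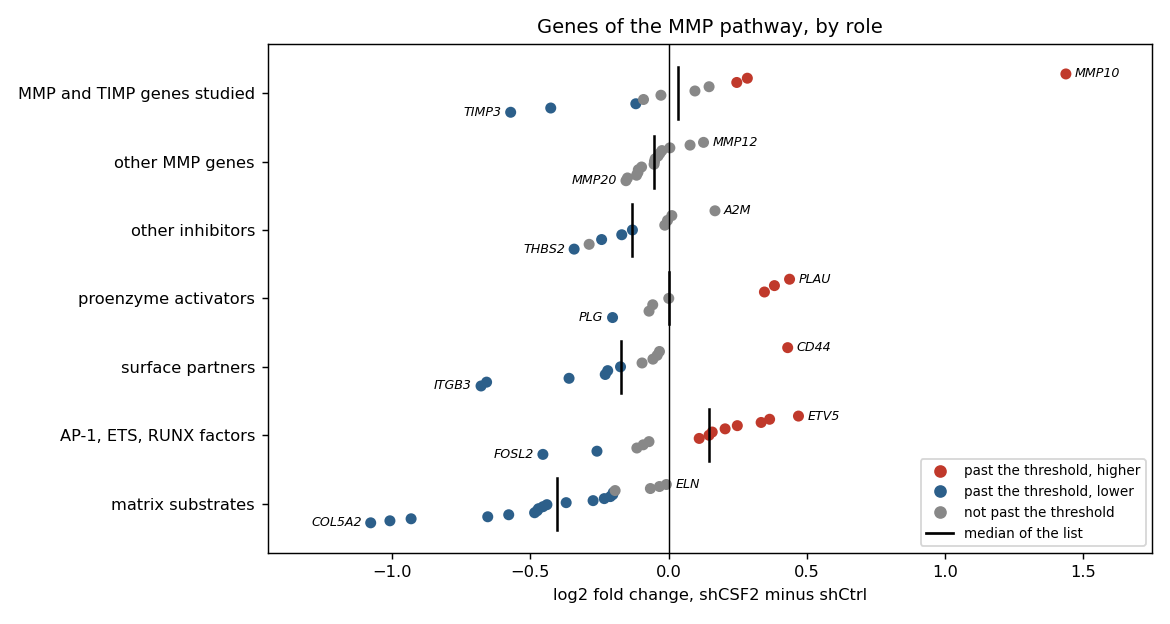
Log2 fold change (shCSF2 minus shCtrl) of the 10 MMP and TIMP genes and of 6 lists of related genes, 1 point per gene by its brightest probe set. Red and blue points passed the threshold as higher and lower, black lines mark list medians, and the lowest and highest gene of each list is named. The medians lie between -0.41 for matrix substrates and 0.15 for the AP-1, ETS and RUNX factors.

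The genes whose pattern over the 6 arrays was most like that of MMP10 were found by the root mean square difference between log2 values, each centred on its shCtrl mean. Among 9993 genes with a mean of at least 6 in the higher group, they were the cystine transporter gene SLC7A11 (difference 0.09 log2 units), ZNF367 (0.10), the chemokine gene CXCL5 (0.11) and the stress granule gene G3BP1 (0.12). The genes most like TIMP3 were PLAG1 (0.03), RAB11FIP1 (0.04), the hedgehog-binding gene HHIP (0.04) and PAPPA (0.04), a metalloproteinase gene outside the MMP family that cleaves IGF-binding proteins. With 3 arrays in each of 2 groups this likeness mostly ranks genes by the size of their difference.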

How the data were processed

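Total RNA of 6 samples (200 ng each) was labelled with a 3' kit and hybridised to Affymetrix PrimeView arrays. The deposited values are on a log2 scale, with a single summary for each probe set of an array. RMA, oligo and limma are named by the submitters' processing notes, with no versions or roles, so how the background and arrays were corrected is not given in the sources used here. RMA-type summaries compress differences at low signal. Samples were grouped by their titles. The platform annotation gave the gene of each probe set, with symbols checked against RefSeq (GRCh38.p14). The probe set with the highest mean represented each gene, giving 18132 genes. Percentages of dimmer probe sets describe signal strength and do not compare transcript amounts.

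Groups were compared by linear models with moderated errors (limma 3.58.1, R 4.3.3), over all genes and, separately, over all 49293 non-control probe sets. Benjamini-Hochberg adjustment was used with a threshold of 0.05. Nothing says whether replicates came from separate cultures beyond the name biological replicate, so p-values measure the spread between these samples. The fit was tested on simulated data. Figures were drawn with matplotlib 3.10.9. The members, the gene lists, the tests and the rule for named genes were chosen with earlier results of these data known. The rule named every member, the passing genes of each list (at most the 4 with the largest change) and the 4 genes most like MMP10 and TIMP3. Other genes are said to be named after their values were seen, or are given as markers or as members that did not pass. Genes on a list that no probe set names singly are not analysed here. Precision is limited by the number of arrays. Promoter sequences came from RefSeq (GRCh38.p14). No genome build belongs to the array values.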

Additional observations from a re-analysis of the deposited data

How the results depend on the processing

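Alternatives were a minimum mean log2 value (5, or the median over genes), cyclic loess, centring on array medians, repeated quantile normalisation, array weights, trend and robust variance, other probe sets per gene, the replicate block and each array left out. Among the other probe sets per gene, the most variable was chosen over all 6 arrays, group difference included, which favours large differences. An alternative chosen after seeing the data kept only probe sets ending _at or _a_at. MMP10, MMP3, MMP9, MMP2 and TIMP3 passed in the same direction in every alternative that measured them. The filter at the median left out MMP2, MMP9, MMP10 and MMP13, and the added alternative left out MMP3. TIMP2 passed in 7 of 17 alternatives, MMP1 in 5, MMP13 in 1 of 16 and MMP14 and TIMP1 in 0 of 17. TIMP1 turned to 0.0011 (log2 fold change) with only probe sets ending _at or _a_at. The count of probe sets of the 10 genes that passed as higher, 3, was 5 with the minimum of 5, 6 with cyclic loess and 6 with trend and robust variance, where both of MMP1 also passed. A probe set of MMP13 passed as higher with repeated quantile normalisation, median centring, cyclic loess, trend and robust variance, without shCSF2 replicate 1 and without shCtrl replicate 1. As lower, 1 of MMP14 passed with either minimum and repeated quantile normalisation, 1 of TIMP2 with either minimum and trend and robust variance, and 1 of TIMP1 with the minimum at the median. For MMP2, 2 probe sets instead of 3 passed with repeated quantile normalisation, median centring and cyclic loess. The same held without shCSF2 replicate 2 or 3 and without shCtrl replicate 1 or 2. With the replicate block 2798 genes were higher and 2671 lower, against 3037 and 2893, and of the 10 genes 3 and 2, TIMP2 losing its call. Arrays of the same number deviated together with r of 0.03 to 0.05, and those of different number with r of -0.08 to 0.04. All of these values were small, and the numbers were not taken as pairs. Leaving out 1 array gave 2552 to 2738 higher and 2267 to 2529 lower genes, 3 higher and 2 lower of the 10, and 3 to 4 higher and 5 to 6 lower probe sets. The median log2 fold change of all genes stayed between -0.03 and 0.00 under all settings.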
